A study of Mus musculus with 9 samples.

Results

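Kit, Ly6a, Cd34, Flt3, Slamf1 and Cd48 encode the surface proteins by which LSK cells of mouse bone marrow are gated and split into stem cells and multipotent progenitors. The 6 genes were chosen by symbol for that use, with earlier results of these data known. All 6 are among the 14940 genes of the deposited table and among the 13018 that were tested. LSK cells carry Sca1 and cKit and lack lineage markers, and RNA of such cells, sorted from C57BL/6 bone marrow, was measured in 9 libraries. The naive group held 3 mice that were not immunized. The EAE group held 3 mice immunized 3 days earlier with complete Freund's adjuvant and peptide MOG35-55, the model of experimental autoimmune encephalomyelitis. The treated group held 3 mice immunized in the same way and given SR59230A, an antagonist of the β3-adrenergic receptor, for 3 days. Ages are not given in the labels used here. The labels name neither an adjuvant-only group nor a vehicle, so adjuvant and peptide, and the antagonist and its administration, cannot be told apart. Replicates are separate mice by their labels.

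The sort selects cells by protein. KIT is the receptor for stem cell factor, and Sca-1, the product of Ly6a, is a small GPI-anchored protein that interferons are known to raise on blood progenitors. Within the gate, FLT3 and CD34 mark progenitors as they leave the stem-cell state, CD150 (Slamf1) is kept on stem cells and megakaryocyte-primed progenitors, and CD48, which stem cells lack, is gained by multipotent progenitors of the megakaryocytic, myeloid and lymphoid-primed types alike. RNA and surface protein need not move together, and only RNA was measured here. In these bulk libraries fewer cells of a kind and less RNA per cell cannot be told apart.

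Start-site regions are shown for both receptor kinase genes that were lower after immunization and for the SLAM-family neighbours Cd48 and Slamf1, one of which rose. RefSeq (GRCm38.p6) gave such a region for 5 of the 6 genes. Each spans 300 bases, 250 before the start site and 50 from it on, 5′ to 3′ on the gene's strand. Capitals mark matches on either strand to the ETS core GGAAG, to GATAA (GATA) or to TGNGGT (RUNX), and none of these matches overlapped another.
Kit, chr5:75574737-75575036, plus strand: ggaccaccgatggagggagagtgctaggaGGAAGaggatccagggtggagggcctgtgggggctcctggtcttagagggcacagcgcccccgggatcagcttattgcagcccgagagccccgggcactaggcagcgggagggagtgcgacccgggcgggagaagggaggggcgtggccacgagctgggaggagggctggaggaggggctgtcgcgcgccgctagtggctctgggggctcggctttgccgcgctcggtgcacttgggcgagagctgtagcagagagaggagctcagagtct
Flt3, chr5:147400440-147400739, minus strand: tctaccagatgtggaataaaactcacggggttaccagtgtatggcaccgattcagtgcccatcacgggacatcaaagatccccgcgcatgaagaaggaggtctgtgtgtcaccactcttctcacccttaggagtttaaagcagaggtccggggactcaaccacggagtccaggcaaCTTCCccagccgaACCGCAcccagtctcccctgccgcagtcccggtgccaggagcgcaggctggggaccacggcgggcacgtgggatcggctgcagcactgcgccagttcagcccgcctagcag
Cd48, chr1:171681742-171682041, plus strand: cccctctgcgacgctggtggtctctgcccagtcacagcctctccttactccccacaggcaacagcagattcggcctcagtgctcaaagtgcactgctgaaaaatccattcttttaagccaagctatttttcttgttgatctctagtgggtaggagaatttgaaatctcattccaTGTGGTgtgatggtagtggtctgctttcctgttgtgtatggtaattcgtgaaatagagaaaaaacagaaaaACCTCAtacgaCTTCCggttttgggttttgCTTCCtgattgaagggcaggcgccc
Slamf1, chr1:171766882-171767181, plus strand: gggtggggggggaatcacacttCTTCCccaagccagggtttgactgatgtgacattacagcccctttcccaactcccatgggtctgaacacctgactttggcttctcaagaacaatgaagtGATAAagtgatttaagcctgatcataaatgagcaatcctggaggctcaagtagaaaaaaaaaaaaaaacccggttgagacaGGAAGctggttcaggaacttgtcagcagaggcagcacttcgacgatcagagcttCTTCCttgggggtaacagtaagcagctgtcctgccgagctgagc
Positions are counted from the start site, with those before it negative. The Kit region is 69.0% G and C, and the Flt3 region 61.0%, against 47.3% for Cd48 and 49.0% for Slamf1, with a median of 52.7% over 32851 start-site regions. Kit held 1 ETS core match at -221. Flt3 held 1 ETS core match at -74 and 1 RUNX match at -61. Cd48 held 2 ETS core and 2 RUNX matches, and Slamf1 held 3 ETS core matches and 1 GATA match. Such letters are common: 71.4% of all start-site regions held GGAAG, 45.8% TGNGGT and 25.4% GATAA. The interferon-type element TTCNNNGAA (GAS) was in 8.30% of all regions and in none of the 5 found here. A match is a description of letters, not of binding.

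**Figure D1:**
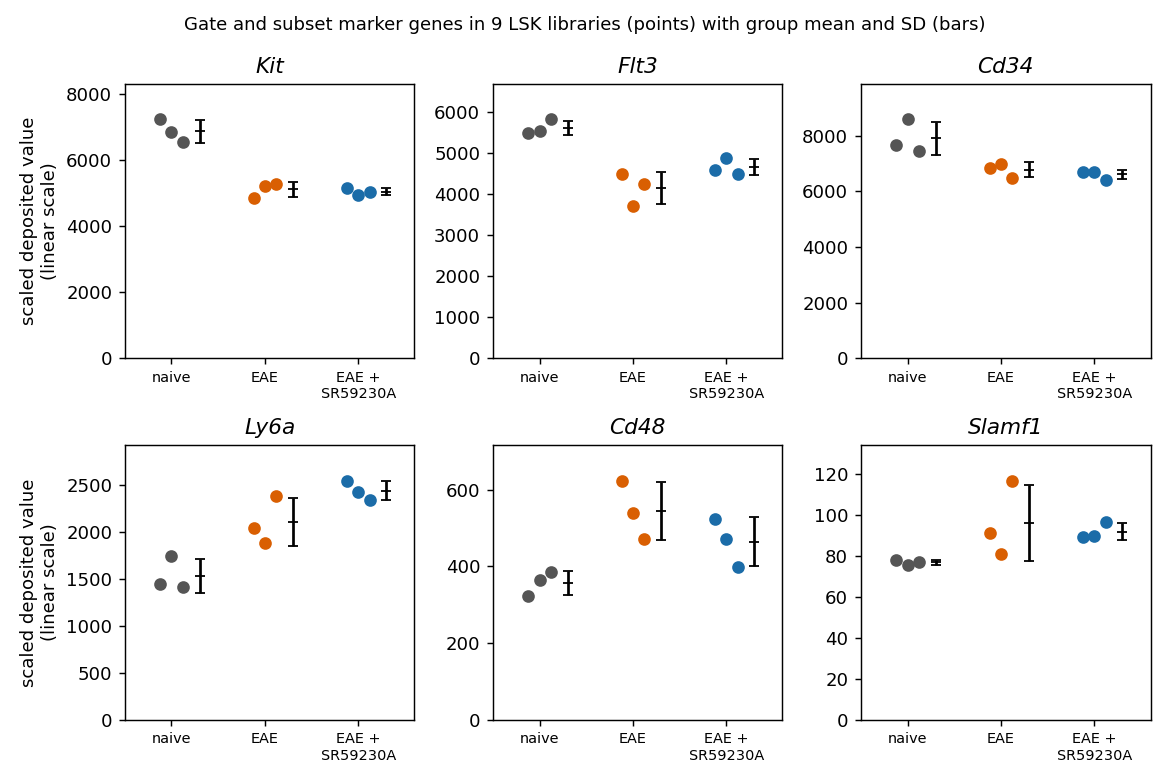
Scaled deposited values (linear axis from 0, no unit) of the 6 marker genes in each of the 9 libraries, with the group mean and SD (n = 3) beside the points. Kit, Flt3 and Cd34 lie lower in all 6 libraries of immunized mice than in all 3 naive libraries, and Ly6a, Cd48 and Slamf1 lie higher.

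After immunization 3 of the 6 markers had lower means and 3 had higher means. In EAE against naive mice Kit and Flt3 fell and Ly6a and Cd48 rose, while Cd34 and Slamf1 did not pass the test. The test was limma-trend on log2(scaled value + 1) across all tested genes, with Benjamini-Hochberg adjusted p under 0.05. In that comparison 14.2% of all tested genes passed (9.13% higher and 5.10% lower), against 4 of the 6 markers. In scaled values the groups did not overlap for any of the 6 markers, 3 higher and 3 lower, against 39.4% of all tested genes (21.0% higher and 18.4% lower). As the markers were chosen with earlier results of these data known, both counts are a description and no independent evidence. Before scaling Cd34 overlapped (EAE replicate 1 at 7585, naive replicate 1 at 7573). Slamf1 did so too (EAE replicate 2 at 79, naive replicate 2 at 80). For Ly6a, EAE replicate 2 at 1838 stood barely above naive replicate 2 at 1837. The sizes were moderate: between 15.2% and 52.4% of all genes had a larger absolute log2 fold change than a given marker. The deposited whole numbers had been adjusted before deposit and are not reads, so neither depth nor counting error is known. They lack 2 directions of variation within the groups, which may make the spread between mice look smaller than it was.

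Kit is the receptor tyrosine kinase gene of the gate. The naive libraries stood at 7235, 6845 and 6547, the EAE libraries at 4846, 5214 and 5286 and the treated libraries at 5158, 4949 and 5042. Every library of immunized mice lay below every naive library, and the EAE and treated libraries overlapped. From a naive mean of 6876 ± 345 (SD, n = 3) the EAE mean of 5116 ± 236 fell by 25.6%, a log2 fold change of -0.43 ± 0.09 (SE) with adjusted p = 0.0115. The treated mean was 5049 ± 105, with a log2 fold change of -0.45 ± 0.09 against naive mice (adjusted p = 0.00961). Treated and EAE mice differed by -0.02, with an interval of -0.22 to 0.19 (95%, unadjusted).

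Flt3, the gene of the other class III receptor kinase of these cells and a mark of lymphoid-primed progenitors, had 5496, 5534 and 5814 in naive mice. The EAE libraries stood at 4479, 3713 and 4239, and the treated libraries at 4595, 4870 and 4494. In these scaled values the groups were ordered with naive highest, treated next and EAE lowest, and no neighbours in that order overlapped. The fall in EAE mice was -0.44 ± 0.10 on the log2 scale (adjusted p = 0.0131). The treated mean, 4653 ± 195 against 5615 ± 174 in naive mice, gave -0.27 ± 0.10 and did not pass (adjusted p = 0.0879). Treated against EAE mice gave 0.17 ± 0.10, with an interval of -0.05 to 0.39 (adjusted p = 0.998). Flt3 was the 1 marker of the 6 whose treated and EAE libraries did not overlap, against 16.2% of all tested genes in that comparison (8.46% higher and 7.71% lower). As 1 of 6 is near that share, the count is no result about Flt3. The gap was small, with EAE replicate 1 at 4479 and treated replicate 3 at 4494. Before scaling these libraries stood at 4960 and 4047, and the groups overlapped. EAE replicate 2 held the lowest Flt3 value of the 9 libraries, and without it the treated-to-EAE difference was 0.10 ± 0.08.

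Ly6a, which encodes the Sca-1 antigen of the gate, moved the opposite way to Kit. It stood at 1439, 1741 and 1412 in naive, 2038, 1881 and 2379 in EAE and 2539, 2422 and 2339 in treated libraries. The EAE libraries all lay above the naive libraries, and the highest EAE library reached into the range of the treated libraries. Means were 1531 ± 182, 2099 ± 255 and 2433 ± 100.5. The log2 fold change was 0.46 ± 0.12 in EAE mice (adjusted p = 0.0226) and 0.68 ± 0.12 in treated mice (adjusted p = 0.00335), both against naive. Treated against EAE mice gave 0.22 ± 0.12 with an interval of -0.04 to 0.47 and did not pass (adjusted p = 0.998), with 0.14 without EAE replicate 2. The rise in EAE mice did not pass without naive replicate 1 (0.41 ± 0.12, adjusted p = 0.0619). Of the 1297 distinct 50-base words in Ly6a transcripts of GENCODE M21, 246 (19.0%) also occur in transcripts of Ly6c1, Ly6c2, Ly6i or I830127L07Rik, so reads could be shared and the level of Ly6a is uncertain to that extent. Ly6i, the one of these in the deposited table, had means of only 7.98, 7.63 and 15.9, and the others were not analysed here. Kit and Cd48 shared no such word with another gene, Cd34 and Flt3 under 1% and Slamf1 2.23%.

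Cd34, which encodes a sialomucin of progenitors, had 7676, 8589 and 7461 in naive, 6849, 7002 and 6479 in EAE and 6708, 6714 and 6427 in treated libraries. All libraries of immunized mice lay below the naive ones, and EAE and treated libraries overlapped. The log2 fold changes against naive mice were -0.22 ± 0.10 in EAE mice and -0.26 ± 0.10 in treated mice, and neither passed (adjusted p = 0.166 and 0.105). Treated against EAE mice gave -0.03, with an interval of -0.25 to 0.18.

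Cd48 and Slamf1 are close neighbours on chromosome 1 and belong to the SLAM family of immune receptors, and CD48 is a GPI-anchored ligand of the family member CD244. Cd48 stood at 323, 364 and 384 in naive, 623, 539 and 472 in EAE and 525, 472 and 398 in treated libraries. Each EAE and each treated library lay above the naive libraries, while EAE and treated libraries overlapped. From a naive mean of 357 ± 30.9 the EAE mean was 52.6% higher at 545 ± 75.6, the largest change of a marker in this comparison (log2 fold change 0.61 ± 0.14, adjusted p = 0.0161). The treated mean of 465 ± 63.9 gave 0.37 ± 0.14 against naive mice and did not pass (adjusted p = 0.0963). Treated against EAE mice gave -0.23 ± 0.14, with an interval of -0.54 to 0.08, and the value was -0.12 without treated replicate 3 and -0.13 without EAE replicate 1.

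Slamf1, the gene of the stem-cell marker CD150, stood at 78.1, 75.8 and 77.0 in naive, 91.2, 80.8 and 117 in EAE and 89.5, 89.7 and 96.6 in treated libraries. All libraries of immunized mice lay above the naive ones, and EAE and treated libraries overlapped. The coefficient of variation was 1.46% in naive and 19.2% in EAE mice, where replicate 3 was highest. The log2 fold changes against naive mice were 0.30 ± 0.19 in EAE and 0.25 ± 0.19 in treated mice, and neither passed (adjusted p = 0.324 and 0.393). Without EAE replicate 3 the value in EAE mice was 0.16. Slamf1 also had the widest intervals of the 6, from -0.12 to 0.72 in EAE mice, an interval that holds both 0 and the estimate for Cd48.

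**Figure D2:**
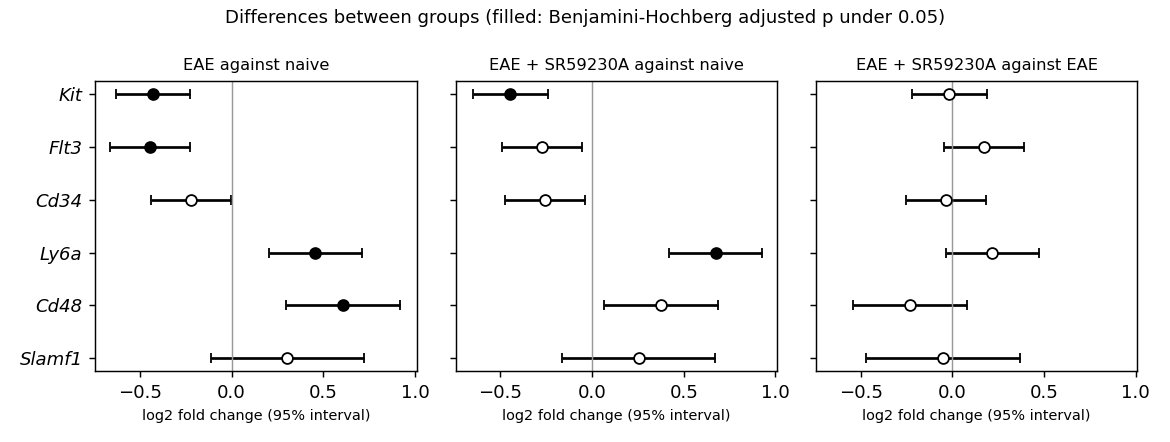
Log2 fold changes of the 6 markers with unadjusted 95% intervals in the 3 comparisons. Filled points passed at adjusted p under 0.05: Kit, Flt3, Ly6a and Cd48 in EAE against naive, Kit and Ly6a in treated against naive, and none in treated against EAE.

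In treated against naive mice 2 of the 6 markers passed, Ly6a higher and Kit lower, against 14.8% of all tested genes (10.2% higher and 4.61% lower). As in EAE mice, no marker overlapped with the naive group in scaled values, against 48.8% of all tested genes (26.4% higher and 22.4% lower). Here too the counts are a description. Before scaling Cd48 overlapped, with treated replicate 3 at 358 and naive replicate 3 at 409. In treated against EAE mice no marker passed, and 0.00768% of all tested genes did by limma-trend: the single gene was Car1, which encodes an erythroid carbonic anhydrase (log2 fold change 1.32 ± 0.10, adjusted p = 0.000516). At an unadjusted p under 0.05 that comparison held 504 genes, none of them a marker. Each marker's own interval, given with its values here, bounds the difference between treated and EAE mice, and that of Slamf1 ran from -0.47 to 0.37. Both comparisons with naive mice share the same 3 naive libraries, and their values are not independent of each other.

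The summed share of 1101 genes of odorant, pheromone and trace amine receptors, called chemosensory here, also differed between the groups. It was 0.144% to 0.172% of the deposited values in naive, 0.102% to 0.116% in EAE and 0.0765% to 0.0948% in treated libraries. With that share as a term no marker passed in any comparison, and the log2 fold change of Ly6a turned to -0.06 ± 0.22 in EAE and -0.19 ± 0.34 in treated mice, both against naive. Because the share does not overlap between the groups, what moves with it and what moves with the group cannot be told apart.

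Ratios between markers within a library do not depend on how libraries are scaled. All 15 pairs were compared in the 3 comparisons, which makes 45 exact permutation tests of 3 against 3 libraries (2-sided), whose smallest possible p is 0.1 (0.18 after adjustment over the 45), so no ratio could pass. The absolute size of a ratio between genes carries no meaning here, since how many reads a gene yields per molecule is not known, and only its difference between libraries is read. In EAE against naive mice 9 of the 15 ratios did not overlap, against 38.2% of all pairs of tested genes. These 9 were the ratios of each higher marker over each lower marker. Such a ratio cannot overlap when neither scaled marker does, so the count restates the marker values and adds no result. The ratios share genes, so they are not 15 separate results.

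**Figure D3:**
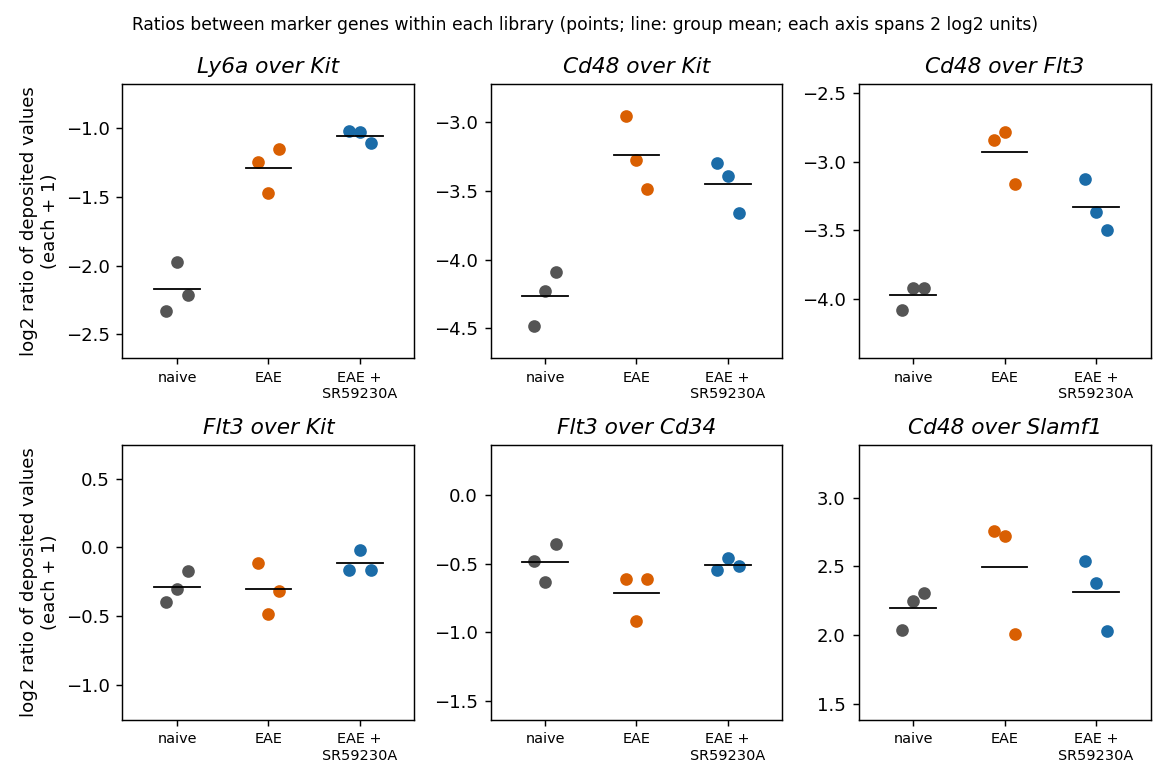
Log2 ratios of the deposited values (each + 1) of 6 marker pairs in each library, with a line at the group mean and an axis range of 2 log2 units in each panel. Ly6a over Kit, Cd48 over Kit and Cd48 over Flt3 lie higher in all 6 libraries of immunized mice than in naive mice, while Flt3 over Kit and Cd48 over Slamf1 overlap between EAE and naive mice.

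The ratio of the gate genes, Ly6a over Kit, was 0.199, 0.254 and 0.216 in naive, 0.421, 0.361 and 0.450 in EAE and 0.492, 0.490 and 0.464 in treated libraries. None of the 3 groups overlapped with another in this ratio. Relative to naive mice the ratio was 1.84 times as high in EAE and 2.17 times as high in treated mice, and it was 1.18-fold higher in treated than in EAE mice (exact permutation p = 0.1 for each, the smallest possible). In treated against EAE mice 3 of 15 ratios did not overlap, against 15.7% of all pairs of tested genes: Ly6a over Kit, Ly6a over Slamf1 and Flt3 over Cd34. That count was 6 without treated replicate 1, 5 without EAE replicate 1 and 9 without EAE replicate 3. Leaving out a library can only keep or raise such a count, and the share over all pairs was not computed for these cases. The higher counts are therefore no result about the ratios.

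Cd48 over Flt3, the marker with the largest rise in EAE mice over the one with the largest fall, was 0.0590, 0.0659 and 0.0662 in naive, 0.139, 0.145 and 0.112 in EAE and 0.114, 0.0971 and 0.0887 in treated libraries. Over naive mice the difference was 2.06-fold in EAE and 1.56-fold in treated mice, without overlap. The pair was picked by these same values, and neither scaled marker overlapped with naive mice by itself. The size and the lack of overlap are therefore a description, not a further result. EAE and treated libraries overlapped in it, with a difference of -0.40 on the log2 scale (exact permutation p = 0.2). Cd48 over Kit was likewise higher in immunized mice, 2.04-fold in EAE and 1.76-fold in treated mice.

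Flt3 over Kit, a pair that fell together, had group means of -0.29 ± 0.11 on the log2 scale in naive and -0.31 ± 0.19 in EAE mice (SD, n = 3), a difference of -0.02 that is smaller than either SD (exact permutation p = 0.9). Cd48 over Slamf1, the pair of SLAM stains, was 2.20 ± 0.14 in naive and 2.50 ± 0.42 in EAE mice and overlapped (exact permutation p = 0.4). Of the EAE libraries, replicates 1 and 2 stood at 6.77 and 6.60 in this ratio and replicate 3 at 4.02, under all 3 naive libraries. In treated against naive mice 13 of 15 ratios did not overlap, against 47.1% of all pairs, and the exceptions were Flt3 over Cd34 and Cd48 over Slamf1. Every ratio of a higher over a lower marker is among the 13, and its lack of overlap follows from that of the scaled markers.

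The genes most like each marker were taken as the 3 with the highest Pearson correlation over the 9 libraries, which share the group pattern, so the values are a description. For Kit these were Crispld1 (r = 0.993), Mamdc2 and Peg13, all lower after immunization by more than Kit, with log2 fold changes of -1.05, -1.13 and -0.78 in EAE mice. Ly6a was followed by Cx3cr1 (r = 0.994), the fractalkine receptor gene, and by Gm5833 and Rtn4rl1, all with low group means of at most 54.6, and none of them passed in EAE against naive mice. In treated against naive mice all 3 passed by limma-trend, at 1.48, 2.50 and 1.22 (adjusted p = 0.0144, 0.0163 and 0.0158). Flt3 was followed by Phldb3, Npas2 and Cnn3 (r = 0.990, 0.988 and 0.986), of which Cnn3, a calponin gene, fell by 0.70 in EAE mice. For Cd34 they were Itpr3, 1700029I15Rik and Ninj1 (r = 0.989, 0.981 and 0.978), for Cd48 Timm50, Akr1a1 and Selt (r = 0.991, 0.981 and 0.980) and for Slamf1 Nkiras1, Ythdf3 and Fry (r = 0.991, 0.970 and 0.964). None of the genes most like Cd34, Cd48 or Slamf1 passed in EAE against naive mice.

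Among SLAM-family and Ly6-type relatives of the markers the share that passed was close to that of all tested genes (14.2% in EAE against naive mice), so the counts are no result about these families. Of 5 other SLAM-family genes tested, 1 rose and none fell in EAE mice: Cd244, the receptor for CD48, from 753 to 1051 (log2 fold change 0.48 ± 0.09, adjusted p = 0.00596), and it was also higher in treated mice (0.42, adjusted p = 0.0117). Slamf7 and Ly9, next to Cd48 in the RefSeq order, did not pass, at -0.99 ± 0.54 and -0.11 ± 0.14. Of 9 other Ly6-type genes tested, 1 rose and none fell in EAE mice. It was Ly6e, close to Ly6a on chromosome 15, with means of 9914 in naive, 13404 in EAE and 15079 in treated mice and log2 fold changes of 0.44 ± 0.11 and 0.61 against naive (adjusted p = 0.0200 and 0.00403). Medians were 0.48 for the SLAM and -0.10 for the Ly6 genes, against -0.0032 over all tested genes.

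Of 7 listed genes for other class III receptor kinases and the ligands of the class, 4 were in the table. These were the receptor genes Csf1r and Pdgfrb and the ligand genes Csf1 and Flt3l, too few for a direction of the class. Of these 4, 3 rose in EAE mice and none fell, against 9.13% and 5.10% of all tested genes. Csf1r, the receptor of macrophage colony-stimulating factor, rose by 2.29 ± 0.25 and its ligand gene Csf1 by 0.45 ± 0.13, and Pdgfrb, a growth factor receptor gene of stromal cells, by 0.39 ± 0.09. Flt3l, the ligand gene of FLT3, did not pass (-0.29 ± 0.12). Of 35 genes for signalling downstream of Kit and Flt3, 2 rose and 6 fell in EAE mice, with a median of 0.02. The shares over all tested genes were 9.13% and 5.10%. The inhibitory adaptor gene Dok2 fell by 0.83 ± 0.11 and Spred2, an inhibitor of Ras signalling, by 0.65 ± 0.11, while the docking protein gene Gab2 and the adaptor gene Sh2b2 rose by 0.55 ± 0.11 and 0.57 ± 0.13. In treated against naive mice 4 of the 35 rose and 4 fell, with Dok2 and Spred2 at -0.70 and -0.74. Over all tested genes 10.2% rose and 4.61% fell there.

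Other surface genes used to stain LSK cells changed in both directions: of 28 tested, 5 rose and 8 fell in EAE mice, with a median of -0.12. Over all tested genes 9.13% rose and 5.10% fell in EAE mice, and 10.2% rose and 4.61% fell in treated against naive mice. Robo4, a guidance receptor gene of stem cells, and Cd93, a C-type lectin gene, fell by 1.06 and 0.53. In treated against naive mice 4 rose and 8 fell, among them Robo4 lower by -1.07 and Cxcr4, the chemokine receptor gene of marrow retention, higher by 0.60.

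**Figure D4:**
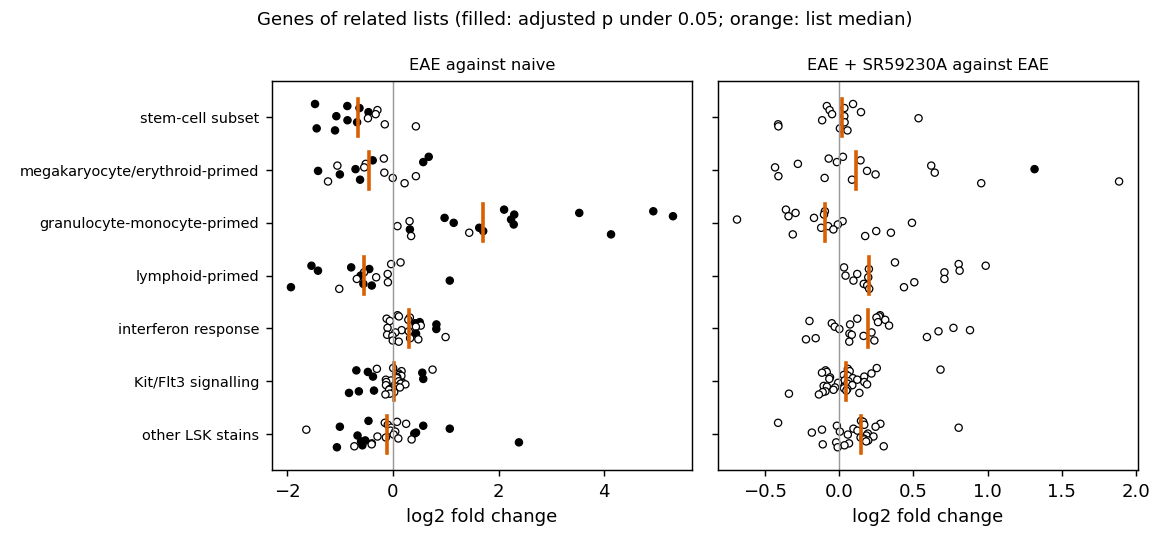
Log2 fold changes of the tested genes of 7 related lists in EAE against naive mice and in treated against EAE mice. Each point is a gene, filled where adjusted p was under 0.05, and the orange line is the list median. In EAE against naive mice the granulocyte-monocyte-primed list has its median at 1.71 and the stem-cell, lymphoid-primed and megakaryocyte/erythroid-primed lists at -0.66, -0.55 and -0.45, while in treated against EAE mice 1 gene of all lists shown is filled.

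Genes of the progenitor types that these stains separate are given beside the markers. The lists were chosen with earlier results of these data known, so their directions are no independent evidence. Over all tested genes 9.13% rose and 5.10% fell in EAE mice. Of 17 granulocyte-monocyte-primed genes, 13 rose in EAE mice and none fell (median 1.71), with Ms4a3, a marker of these progenitors, from 18.6 to 762 and Ccr2, the monocyte chemokine receptor gene, from 68.3 to 1172. Of 17 lymphoid-primed genes, 1 rose and 8 fell (median -0.55): Lsp1, an actin-binding protein gene of leukocytes, fell by 0.56, the transcription factor gene Mef2c by 0.61 and the recombinase gene Rag2 by 0.79. Of 14 stem-cell genes, none rose and 9 fell (median -0.66), and of 16 megakaryocyte and erythroid-primed genes, 2 rose and 5 fell (median -0.45). In treated against EAE mice the log2 fold change was above 0 in 17 of 17 lymphoid-primed genes (median 0.20), against 52.5% of all tested genes, and none of them passed.

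Interferon response genes are given beside Ly6a. Over all tested genes 9.13% rose and 5.10% fell in EAE mice, and 10.2% rose and 4.61% fell in treated mice, both against naive. Of 24 tested, 5 rose in EAE mice and none fell (median 0.29), among them Gbp3, an interferon-inducible GTPase gene, by 0.82 ± 0.10 and Bst2, which encodes tetherin, by 0.51 ± 0.09. In treated against naive mice 11 rose and none fell (median 0.39), and the smallest adjusted p belonged to the GTPase gene Igtp at 0.97 (adjusted p = 0.000337). Treated against EAE mice gave a median of 0.19 with 0 of 24 passing.

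Markers of cells outside the gate were summed per library, and their part in the results was not tested. For the counts below, the shares over all tested genes were 9.13% higher and 5.10% lower in EAE mice. In treated mice they were 10.2% and 4.61%, again against naive. For mature myeloid cells, 14 of 15 markers were in the table and their sum was 3559 to 8123 in naive, 5552 to 18802 in EAE and 9697 to 19456 in treated libraries, with Adgre1 at a mean under 10 over all 9 libraries (14.99 in treated mice). Of the 14 tested, 3 rose in EAE mice and 6 in treated mice against naive, and Itgam, an integrin gene of the lineage stain, rose by 0.99 in EAE mice. For T and natural killer cells (7 of 11 in the table) the sums were 1243 to 1362, 1352 to 1569 and 1468 to 1555 in naive, EAE and treated libraries, with Cd3g, Cd8a and Ncr1 at means under 10 over all 9 libraries. Of 5 tested, 2 rose and 1 fell in EAE mice and 3 rose in treated mice, both against naive. Ncr1, a natural killer receptor gene, was among those 3, with group means of 0.964 in naive, 4.97 in EAE and 14.99 in treated mice (log2 fold change 3.16 ± 0.67 for treated against naive, adjusted p = 0.0105). For B cells (6 of 9) they were 884 to 1093, 756 to 879 and 949 to 1021, with Ms4a1 under 10 over all libraries, and of 5 tested none rose and 1 fell. For erythroid cells (5 of 10) they were 131 to 173, 105 to 172 and 167 to 251, with Epb42 under 10, and none of 4 tested passed. Stromal and endothelial markers (7 of 9) gave 3950 to 4574, 4187 to 5246 and 4789 to 5356, with Cxcl12 and Col1a1 under 10 over all libraries. Of 5 tested 1 rose and 2 fell. Pecam1 (naive, EAE and treated means 2417, 2983 and 3276) and Pdgfrb (1206, 1576 and 1528) held most of these sums. The means of Emcn (418, 276 and 312), Cdh5 (59.2, 7.44 and 11.5) and Kdr (43.6, 11.3 and 12.4) were lower after immunization. Emcn is also in the list of other surface genes used to stain LSK cells, so its fall need not concern cells outside the gate. Naive libraries ranged from 19.0 to 123 in Cdh5. No listed marker in the table was at 0 in every library. The genes of committed progenitors next to the gate (10 of 10) gave 964 to 1092 in naive, 1775 to 2467 in EAE and 2389 to 2583 in treated libraries, and of the 9 tested 5 rose and 1 fell in EAE mice. Some of them are also in the granulocyte-monocyte-primed or the megakaryocyte and erythroid-primed list, among them Ms4a3, which rose, and Car1, which fell. The counts of these lists are therefore not separate results. Fcgr2b, an Fc receptor gene of the list of committed progenitors, rose by 1.80 ± 0.15 and the basophil protease gene Mcpt8 by 2.58 ± 0.28.

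Over the whole series, library sums of the deposited values ranged from 8641735 to 10387955. Principal component 1, with 45.6% of the variance, held the naive libraries at 33.1 to 42.3 and those of immunized mice at -24.7 to -11.5. On component 3, with 13.2%, EAE replicate 2 was far from all others. Without that library 4 markers passed in EAE against naive mice, as with it.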

How the data were processed

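RNA from sorted LSK cells was prepared with the RNeasy micro kit, per the labels' protocols. For the aligner, counting tool, build and annotation nothing is given in the sources used here. DESeq2 is named in the submitters' processing notes, with no role. The table deposited by the authors holds 14940 genes in 9 libraries as whole numbers. These deposited values are a score whose making the labels leave out, not reads. In a principal component analysis of ln(value + 1) for 4577 genes whose mean reached 500, components 7 and 8 explained only 6.7e-05% and 5.94e-05%, too little for independent counts. Depth is therefore unknown.

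Values were divided by median-of-ratios factors, the 13018 genes reaching a deposited value of 10 in 3 or more libraries entered the tests, and log2(scaled value + 1) was analysed, which understates changes of low genes. Groups were compared with limma-trend (limma 3.58.1, R 4.3.3) over all 9 libraries, with the 2 missing directions as terms (4 residual degrees of freedom, prior 7.52), 2-sided, with Benjamini-Hochberg adjustment at 0.05. The fit was also run on simulated data, with the missing directions supplied to it and without scaling or filter. Those runs do not cover how the directions were found or how libraries were scaled. Ratios used the deposited values + 1 and exact permutation tests (scipy 1.17.1). A fold given for a ratio is the difference of mean log2 ratios between groups taken out of the log. Groups come from the treatment label. Replicates are numbered by accession order, which pairs no mice. Of the gene symbols, 14132 matched GENCODE M21, all 6 markers among them. The markers and gene lists were chosen with earlier results of these data known. Some genes are in more than 1 list, so the counts of the lists are not all separate. All 6 markers are named, with up to 4 genes per list of smallest adjusted p (others named were picked after their values were seen) and the 3 most correlated genes per marker. The alternatives were other scaling (none, upper quartile, trimmed mean of M-values), pseudocounts of 0.1 and 10, no filter, no terms for the missing directions, no trend, 2 groups only, a chemosensory term and leaving out each library. A start-site region for Ly6a was not used here, and a few listed genes are counted but not reported here by name.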

Additional observations from a re-analysis of the deposited data

How the results depend on the processing

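No paired analysis was possible because the labels pair no mice across the groups. Of the 6 markers, the number that passed in EAE against naive mice was 4, and 2 without scaling, 0 without a trend of the variance and 0 with the chemosensory term. Without scaling the log2 fold changes of Ly6a (0.43) and Cd48 (0.57) did not pass. Without a trend Kit (-0.43), Ly6a (0.46), Flt3 (-0.44) and Cd48 (0.61) did not pass. With the chemosensory term Kit (-0.50), Flt3 (-0.52) and Cd48 (0.40) did not pass and Ly6a turned to -0.058. Without terms for the missing directions Cd34 passed as well (-0.22, adjusted p = 0.0418). Leaving out 1 library left 3 or 4 markers passing, and the value of Ly6a between 0.36 and 0.55. Each fit without a library held 1 missing direction as a term, and each fit of only the groups compared held 0. These alternatives therefore changed the terms as well as the libraries, and the 2 changes were not tested apart.

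In treated against naive mice the number passing was 2, and 5 without terms for the missing directions, where Cd34 (-0.26), Flt3 (-0.27) and Cd48 (0.37) passed. It was 4 with upper-quartile scaling, where Cd34 (-0.35) and Flt3 (-0.37) passed. It was 5 with only both groups compared, a fit that also held no terms for the missing directions, where Cd34 (-0.25), Flt3 (-0.27) and Cd48 (0.38) passed. With the chemosensory term it was 0, with Kit at -0.56, Ly6a turned to -0.19 and Slamf1 to -0.036. Leaving out 1 library gave 2 to 5 passing, the most without EAE replicate 3, with Cd34 from -0.29 to -0.19, Flt3 from -0.31 to -0.24 and Cd48 from 0.28 to 0.48. In treated against EAE mice no alternative gave a passing marker. The sign turned there for Ly6a with the chemosensory term (from 0.22 to -0.13) and, over the libraries left out, for Kit (-0.054 to 0.0078) and Slamf1 (-0.17 to 0.10). Why calls end or begin was not tested, beyond what each change of the fit does by itself.

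Over all genes, 1853 passed in EAE and 1932 in treated against naive mice, and 1 in treated against EAE mice. These counts were 3485 and 3920 without terms for the missing directions, 1059 and 1073 without scaling, 778, 864 and 0 without a trend and 109, 18 and 0 with the chemosensory term. With only both groups compared 4442 passed in treated against naive mice. Leaving out 1 library gave 1239 to 2624 and 1234 to 3327 in the comparisons with naive mice. Both of these alternatives also held fewer terms for the missing directions. Upper-quartile scaling lowered the share of passing genes that were higher from 64.2% to 47.0% in EAE and from 68.9% to 46.7% in treated mice, and no scaling lowered the latter to 45.6%. Without scaling the median log2 fold change of all genes in treated against naive mice moved from 0.0071 to -0.11. Ratios that did not overlap between treated and EAE mice numbered 3 to 9 when 1 library was left out, a change that can only keep or raise this count. The 3 mice per group and the unknown depth limit the precision of every value.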
